A study of Mus musculus with 6 samples.

Results

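The genes described here encode the proteins of the mitochondrial ribosome. They were taken as every row of the gene table whose symbol is Mrpl (large subunit) or Mrps (small subunit) followed by a number and, in some, a letter. Of 31205 genes in the table, 78 met this rule, 49 of the large and 29 of the small subunit. Mrpl53 had 0 counts in all 6 libraries and was not tested, so results are for 77 members, 48 large and 29 small.

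The libraries are bulk RNA-seq of total RNA from the mouse dendritic cell line DC2.4. In 3 libraries, labelled KO, the cells were the derivative line in which the gene for PD-L1, a surface protein that restrains T cells through their receptor PD-1, was knocked out. The other 3, labelled Control, were DC2.4 cells. The labels give no drug treatment for either group. The comparison asks how transcript levels in the knockout line differ from those of its parent line.

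KO-labelled libraries held between 13501776 and 21133688 counts and Control libraries between 10918498 and 23250065. The labels do not say whether each library had its own culture, nor how many clones make up the knockout line. All p-values therefore rest on the variation among 3 libraries a group, part or all of which can be technical. Cd274, the gene for PD-L1, had 102, 81 and 163 counts in KO-labelled libraries and 52, 99 and 171 in Control libraries, which does not check the label, since an edit of the coding sequence need not change a gene's count. Of 14 dendritic and myeloid markers, Flt3 (0 to 1 counts per library) and H2-Ab1 (0 to 4) were near 0, and the other 12 had at least 65 counts in every library. Of these 12, Cd80 was called higher (log2 fold change 0.53, adjusted p = 0.0318), and Fcgr1 (-1.18, adjusted p = 0.000625), Csf1r (-0.72, adjusted p = 0.0143) and Zbtb46 (-0.72, adjusted p = 0.049) were called lower. Control library 2 held 2235 counts of Col1a1 and 1382 of Fn1, while the other 5 libraries had no more than 5 and 3. The stromal markers as a list summed to between 0 and 4 counts in KO-labelled libraries and to 6, 3656 and 9 in Control libraries 1, 2 and 3, and their part in the results was not tested. The main counts of members called are given with and without this library.

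The mitochondrial ribosome translates the few messages made from mitochondrial DNA, which encode core subunits of the respiratory chain and ATP synthase. Its RNAs come from mitochondrial DNA, but its proteins are encoded in the nucleus, made on cytosolic ribosomes and imported. Many of these proteins have a bacterial counterpart and carry its number, and others were gained in mitochondria. In dendritic cells, as in other cells, the respiratory chain that depends on this ribosome feeds ATP production and the mitochondrial membrane potential.

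The promoters of genes for mitochondrial proteins are known for sites of NRF1, of YY1 and of GABPA, a factor of the ETS family. RefSeq windows of 250 bases before and 50 after the gene start (build GRCm38.p6) were on hand for 69 of the 78 members. They were searched on both strands for CCGGAAG, the ETS motif, and for the NRF1 and YY1 motifs, which are spelled in capitals in the windows of Mrpl12 and Mrps18a below. The fifth base of the NRF1 motif may be any base, and no motif holds another. CCGGAAG stood in 25 of the 69 windows (36.2%), against 9.12% of 27025 genes' windows and 20.1% of the windows of 9033 tested genes. The NRF1 motif stood in 13 (18.8%), against 4.78% and 11.5%. The YY1 motif stood in 5 (7.25%), against 0.699% and 1.84%. Over both subunits together, each motif was more frequent in the members' windows than in the windows of all genes or of tested genes. By subunit, the NRF1 motif stood in 10 of 43 large (23.3%) and 3 of 26 small subunit windows (11.5%, the share of tested genes). CCGGAAG stood in 32.6% of large and 42.3% of small subunit windows, and the YY1 motif in 4.65% and 11.5%. No test of these shares was made. In all, 37 of the 69 windows held at least 1 of the motifs. Among members with a window, 39 were called higher (defined below) and 29 were tested with no call. CCGGAAG stood in 35.9% and 34.5% of them, the NRF1 motif in 23.1% and 13.8% and the YY1 motif in 7.69% and 6.90%, with no test made. A match is only a run of letters and was not tested as a binding site.

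Below are 4 windows, each on the + strand and read 5′ to 3′, with motif matches in capitals. Mrps18a had the lowest adjusted p of all members and holds an ETS and a YY1 match. Mrpl12 had the highest level per length and holds an NRF1 match. Mrpl28 had the largest fold change of the large subunit and Mrps2 was one of the 2 members with a negative fold change, and neither window held a match. Their windows are chr17:46110754-46111053, chr11:120484387-120484686, chr17:26123253-26123552 and chr2:28467816-28468115 in that order.
Mrps18a: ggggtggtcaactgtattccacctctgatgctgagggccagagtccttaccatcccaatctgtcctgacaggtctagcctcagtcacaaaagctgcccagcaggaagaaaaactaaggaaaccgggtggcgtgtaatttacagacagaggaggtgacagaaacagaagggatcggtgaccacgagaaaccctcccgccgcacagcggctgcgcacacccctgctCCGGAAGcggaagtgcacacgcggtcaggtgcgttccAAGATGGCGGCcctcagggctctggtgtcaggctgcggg
Mrpl12: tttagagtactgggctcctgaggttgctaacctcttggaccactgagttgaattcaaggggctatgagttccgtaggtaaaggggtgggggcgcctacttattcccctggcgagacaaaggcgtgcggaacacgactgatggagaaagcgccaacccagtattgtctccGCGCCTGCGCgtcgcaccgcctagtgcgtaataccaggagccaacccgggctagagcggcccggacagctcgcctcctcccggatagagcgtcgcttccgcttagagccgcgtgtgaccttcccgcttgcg
Mrpl28: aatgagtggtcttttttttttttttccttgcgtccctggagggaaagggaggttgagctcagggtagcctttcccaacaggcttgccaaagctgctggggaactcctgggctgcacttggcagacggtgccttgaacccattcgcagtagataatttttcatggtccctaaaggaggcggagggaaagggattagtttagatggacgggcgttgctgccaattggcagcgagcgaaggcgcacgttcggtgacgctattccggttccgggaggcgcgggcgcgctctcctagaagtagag
Mrps2: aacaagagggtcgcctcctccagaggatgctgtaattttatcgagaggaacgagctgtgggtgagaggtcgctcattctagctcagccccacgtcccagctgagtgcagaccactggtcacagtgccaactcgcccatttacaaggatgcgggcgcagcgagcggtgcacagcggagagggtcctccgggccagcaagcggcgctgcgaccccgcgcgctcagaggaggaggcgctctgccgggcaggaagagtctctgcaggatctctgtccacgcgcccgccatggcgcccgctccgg

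Many transcripts of both subunits were higher in KO-labelled libraries. Of 48 large subunit genes, 28 were called higher (58.3%), and of 29 small subunit genes, 18 (62.1%), which makes 46 of 77 (59.7%). A call is an adjusted p under 0.05 in edgeR's quasi-likelihood test over all 11453 tested genes, of which 11.8% were called higher and 13.5% lower. None of the 77 members was called lower in this main edgeR fit or by DESeq2, while 2 were with offsets for exon length and GC content. An unadjusted p under 0.05 was found in 65 members, and in 4680 of all 11453 tested genes. Without Control library 2, 3 large and 4 small subunit genes were called higher, where 1.43% of all tested genes were, and the median log2 fold changes were 0.48 and 0.49. The median log2 fold change (KO minus Control) was 0.52 in the large and 0.52 in the small subunit, beside 0.01 over all tested genes. Because these are bulk samples, a change in the make-up of the cells and a change in RNA per cell cannot be told apart.

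Summed over the large subunit, the level was 3708, 4846 and 4459 CPM (counts scaled to library size, TMM-normalized) in KO-labelled libraries 1, 2 and 3, against 3164, 2732 and 2972 in Control libraries 1, 2 and 3. The small subunit summed to 1873, 2367 and 2156 CPM in KO-labelled libraries and 1565, 1378 and 1470 in Control libraries. For both subunits the lowest KO-labelled library, library 1, lay above the highest Control library, also library 1. The KO-labelled mean was 1.47 times the Control mean for the large subunit (4337 ± 579 against 2956 ± 217 CPM, SD, n = 3) and 1.45 times for the small (2132 ± 248 against 1471 ± 93.1). The large-to-small ratio stayed between 1.98 and 2.07 in KO-labelled libraries and between 1.98 and 2.02 in Control libraries.

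**Figure D1:**
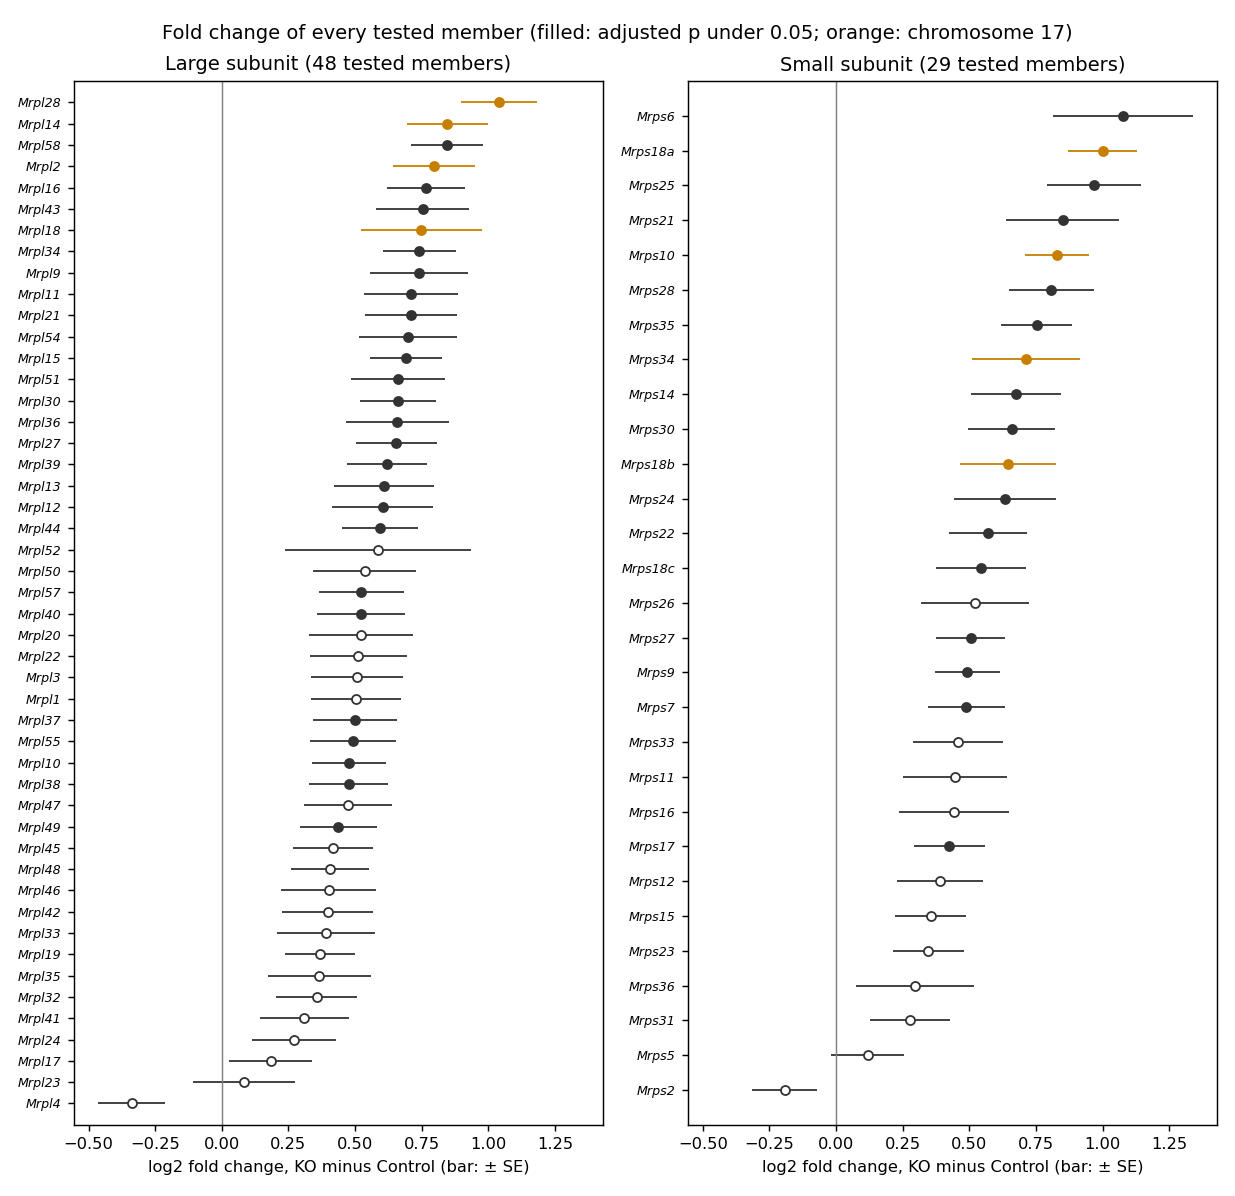
Log2 fold change (KO minus Control, x axis) of each tested member with its standard error as a bar, by subunit, with filled points for an adjusted p under 0.05 and orange for chromosome 17. Of 77 points 75 lie right of 0, and Mrpl4 and Mrps2 lie left of it.

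The range was -0.34 to 1.04 in the large subunit and -0.19 to 1.08 in the small. Called members lay between 0.42 and 1.08, and of the 46, 3 (Mrps6, Mrpl28 and Mrps18a) reached a 2-fold change and 13 stayed under 1.5-fold. Of the 31 members with no call, 29 had a positive fold change, with adjusted p between 0.0539 and 0.775. All KO-labelled libraries lay above all Control libraries in 53 of 77 members (68.8%), which holds for 21.1% of all tested genes. The reverse order held in 2 members, and in 21.8% of all tested genes. Each call below was made with all 6 libraries, and those that end without 1 of them are named with the order of the libraries.

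Among large subunit genes, Mrpl28, whose bacterial counterpart is a large subunit protein of the same number, had the lowest adjusted p and the largest fold change. Mrpl28 (chr17:26123500-26126613, + strand, mm10) had 136, 179 and 156 CPM in KO-labelled libraries and 80.1, 69.2 and 80.2 CPM in Control libraries. Its groups stood well apart, and it was higher by 1.04 on the log2 scale (95% interval 0.72 to 1.36, SE 0.14, adjusted p = 0.00187). Mrpl58 (chr11:115403752-115412674, + strand), a peptidyl-tRNA hydrolase that is built into the ribosome and frees stalled chains, had 40.5, 45.5 and 41.4 CPM in KO-labelled libraries and 24.3, 21.5 and 25.1 in Control libraries. It was higher by 0.84 (SE 0.13, adjusted p = 0.00374), with little spread inside either group.

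Several large subunit proteins lie near the peptidyl transferase centre in bacteria, where peptide bonds form. Mrpl2 had 114, 117 and 103 CPM in KO-labelled libraries and 77.8, 55.6 and 59.4 in Control libraries (log2 fold change 0.79, adjusted p = 0.00795). Mrpl16 had 83.4, 111 and 90.0 CPM against 60.1, 52.0 and 55.5 in Control libraries (0.77, adjusted p = 0.0077). Mrpl27 had 39.5, 42.6 and 37.7 CPM against 29.4, 21.2 and 25.7 in Control libraries (0.65, adjusted p = 0.0155). In all 3 genes the lowest KO-labelled value lay above the highest Control value. The other large subunit genes among the 10 with the lowest adjusted p and groups apart were Mrpl14 (0.85), Mrpl34 (0.74), Mrpl15 (0.69), Mrpl30 (0.66) and Mrpl43 (0.75), with adjusted p between 0.00618 and 0.0155.

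Mrpl12 forms the flexible stalk that draws translation factors to the ribosome and had the highest level per length of all members, 184 CPM per kb of exon in KO-labelled and 121 in Control libraries. It had 268, 331 and 247 CPM in KO-labelled libraries and 237, 171 and 150 in Control libraries. Its groups did not overlap, but Control library 1 came close to KO-labelled library 3, and the log2 fold change was 0.60 (SE 0.19, adjusted p = 0.0418). Mrpl44, a protein related to bacterial ribonuclease III, had 63.9, 73.5 and 70.9 CPM in KO-labelled libraries and 52.6, 40.4 and 45.4 in Control libraries. It was higher by 0.59 (SE 0.14, adjusted p = 0.0171), with groups apart.

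Mrpl28 and Mrpl18, which binds the smallest ribosomal RNA in bacteria, followed Mrpl12 among large subunit genes in level per length. Mrpl28 had 114 CPM per kb in KO-labelled and 55.4 in Control libraries, and Mrpl18 had 108 and 64.5. Mrpl18 was called higher (log2 fold change 0.75, adjusted p = 0.0377), yet its groups overlapped. It had 98.2, 182 and 174 CPM in KO-labelled libraries and 83.8, 79.2 and 107 in Control libraries, so KO-labelled library 1 lay below Control library 3.

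At the low end of level per length, no call was made for any of the 3 large subunit genes. Mrpl48 had 5.40 CPM per kb in KO-labelled and 4.07 in Control libraries (0.41, adjusted p = 0.0642), and Mrpl33 had 7.02 and 5.34 (0.39, adjusted p = 0.138). The third was Mrpl23, with 5.49 and 5.19. Mrpl23, whose bacterial counterpart sits at the mouth of the peptide exit tunnel, had 31.6, 28.0 and 20.8 CPM in KO-labelled libraries and 28.4, 27.1 and 20.5 in Control libraries. The groups lay on top of each other, at a log2 fold change of 0.08 with a 95% interval of -0.34 to 0.51 (adjusted p = 0.775). Pseudogenes of Mrpl23 and Mrpl48 are annotated, and reads may have been split with them. Of the 78 members, 42 overlap another annotated gene, by between 8 and 67447 bases of the gene span, introns included. With no strand setting known, reads from the shared stretch cannot be told apart from those of the partner. One such pair is made of 2 members, Mrpl46 (0.40, adjusted p = 0.118) and Mrps11 (0.45, adjusted p = 0.114), which lie head to head with promoter windows that share 141 bases.

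Among small subunit genes, Mrps18a (chr17:46110986-46128910, + strand) had 127, 140 and 130 CPM in KO-labelled libraries and 72.3, 59.5 and 67.1 in Control libraries. This gave 133 ± 6.82 against 66.3 ± 6.44 CPM (SD, n = 3), or 1.00 on the log2 scale (SE 0.13, adjusted p = 0.0013). Mrps18a has the paralogs Mrps18b and Mrps18c, 3 proteins related to 1 bacterial small subunit protein. Mrps18b had 53.8, 57.9 and 73.0 CPM in KO-labelled libraries and 47.9, 32.1 and 38.5 in Control libraries (0.65, SE 0.18, adjusted p = 0.0289). Mrps18c had 39.3, 58.4 and 44.7 CPM in KO-labelled libraries and 34.3, 29.2 and 34.2 in Control libraries (0.55, SE 0.17, adjusted p = 0.0406). In all 3 paralogs the groups were apart, with the narrowest gaps in Mrps18b and Mrps18c.

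**Figure D2:**
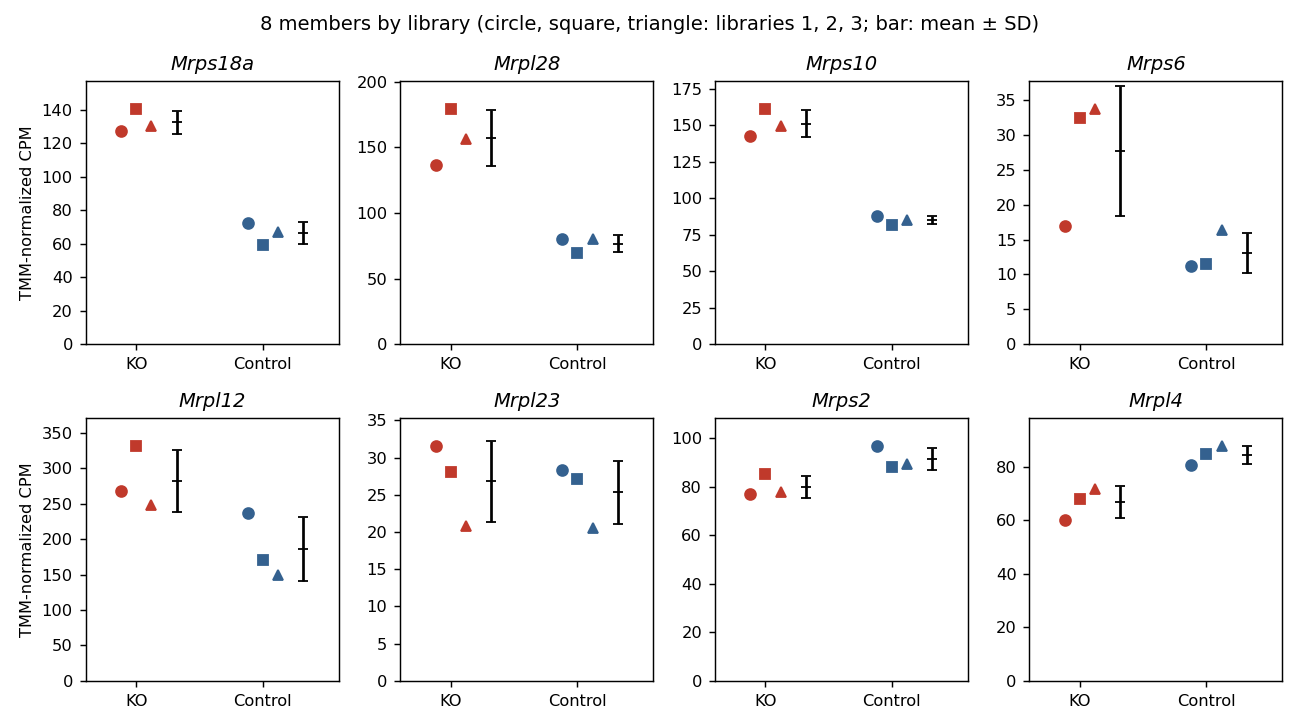
Level (CPM, TMM-normalized, linear axis from 0) of 8 members in each of the 3 KO-labelled and 3 Control libraries, with circle, square and triangle for libraries 1, 2 and 3 and bars for mean ± SD. In Mrpl28 and Mrps18a the groups stand far apart, in Mrpl23 they overlap, and in Mrpl4 and Mrps2 the KO-labelled points lie lower.

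Mrps10, a protein of the head of the small subunit, had 143, 161 and 150 CPM in KO-labelled libraries and 87.9, 81.9 and 85.3 in Control libraries. Its groups were apart at 0.83 (SE 0.12, adjusted p = 0.00242). Mrps35, which has no bacterial counterpart, had 77.5, 94.0 and 78.6 CPM in KO-labelled libraries and 46.9, 50.4 and 51.1 in Control libraries (0.75, adjusted p = 0.00578). Mrps25, also without one, had 56.6, 90.4 and 76.3 CPM in KO-labelled libraries and 34.9, 38.8 and 40.5 in Control libraries (0.97, SE 0.18, adjusted p = 0.00665). In both genes KO-labelled library 1 was the lowest of its group and still lay above every Control library.

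Mrps6 (chr16:92058270-92112227, + strand) had the largest fold change of all members and the widest error in the small subunit. It had 16.9, 32.4 and 33.7 CPM in KO-labelled libraries and 11.3, 11.5 and 16.4 in Control libraries. KO-labelled library 1 lay only just above Control library 3, and the log2 fold change was 1.08 (SE 0.26, adjusted p = 0.0183). The solute carrier gene Slc5a3 overlaps Mrps6 on the same strand, so reads counted for Mrps6 are uncertain. The remaining small subunit genes among the 10 with the lowest adjusted p and groups apart were Mrps28 (0.81), Mrps9 (0.49), Mrps30 (0.66), Mrps21 (0.85) and Mrps14 (0.67), with adjusted p between 0.00836 and 0.0197.

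Mrps21 had the highest level per length in the small subunit, 139 CPM per kb in KO-labelled and 77.3 in Control libraries. Mrps15 followed with 55.4 and 43.3 (0.36, adjusted p = 0.0743, no call) and Mrps7 with 51.0 and 36.4 (0.49, adjusted p = 0.0342). The lowest per length were Mrps35 (9.66 in KO-labelled and 5.73 in Control libraries), Mrps25 (11.3 and 5.79) and Mrps16 (11.3 and 8.32). The annotated exons of Mrps35 and Mrps25 span 8631 and 6576 bases, against a members' median of 2533, so this rank does not mean few reads. Mrps16 had no call (0.44, adjusted p = 0.136), while Mrps35 and Mrps25 were higher. Mrps22, mutated in human mitochondrial disease, had 57.6, 77.8 and 70.1 CPM in KO-labelled libraries and 45.7, 43.4 and 49.2 in Control libraries (0.57, adjusted p = 0.021). Mrps12, whose bacterial counterpart helps to read codons, had 28.5, 40.1 and 31.0 CPM in KO-labelled libraries and 26.7, 26.5 and 22.9 in Control libraries (0.39, adjusted p = 0.0999, no call).

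Mrpl4 and Mrps2 were singled out after their values were seen, as the 2 members with a negative fold change. Mrpl4 (chr9:21002738-21008839, + strand), whose bacterial counterpart lines the exit tunnel, had 60.3, 68.2 and 71.9 CPM in KO-labelled libraries and 80.8, 84.7 and 87.9 in Control libraries. Mrps2 (chr2:28468066-28471178, + strand), whose bacterial counterpart is a small subunit protein of the same number, had 76.9, 85.2 and 77.8 CPM in KO-labelled libraries and 96.8, 88.3 and 89.3 in Control libraries. In both genes every KO-labelled value lay below every Control value. Neither was called, at -0.34 (SE 0.13, adjusted p = 0.0739) for Mrpl4 and -0.19 (SE 0.12, adjusted p = 0.258) for Mrps2. With offsets for exon length and GC content both were called lower, Mrpl4 at -0.52 (adjusted p = 0.0122) and Mrps2 at -0.38 (adjusted p = 0.0258). With each chromosome's median removed instead, a setting added after the data were seen, Mrps2 stood at 0.02.

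In the main edgeR fit, members with a bacterial number and members gained in mitochondria were called higher in like shares. Large subunit genes numbered up to 36, the range of the bacterial large subunit, were called higher in 16 of 28 (median log2 fold change 0.61), and those from 37 up in 12 of 20 (0.51). Small subunit genes numbered up to 21 were called higher in 10 of 16 (0.49), and those from 22 up in 8 of 13 (0.57). Without Control library 2 these counts were 2 of 28, 1 of 20, 2 of 16 and 2 of 13, where 1.43% of all tested genes were called higher. In other settings the large subunit ranges lay farther apart. With length and GC offsets the counts were 11 of 28, 5 of 20, 5 of 16 and 4 of 13 (9.74% of all tested genes). Without KO-labelled library 3 they were 7 of 28, 1 of 20, 2 of 16 and 3 of 13 (4.60%). The difference between the ranges was not tested. The symbols do not always match the place in the ribosome, since Mrps18a and Mrps30 sit in the large subunit. With these 2 moved, 30 of 50 large and 16 of 27 small subunit genes were called higher. Mrps36, reported as part of the 2-oxoglutarate dehydrogenase complex, had 25.7 ± 7.23 CPM in KO-labelled and 20.9 ± 3.49 in Control libraries (SD, n = 3, log2 fold change 0.30, adjusted p = 0.337, groups overlapping).

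The members of both subunits shared an order of the libraries. KO-labelled library 1 was the lowest of its group in 38 of 48 large and 23 of 29 small subunit genes, and KO-labelled library 2 the highest in 35 and 23. Among Control libraries, library 2 was the lowest in 31 large and 16 small subunit genes, and library 1 the highest in 27 and 15. The groups were therefore farthest apart between KO-labelled library 2 and Control library 2, the library with the stromal counts. Without Control library 2, 7 of the 46 calls remained (Mrpl14, Mrpl28, Mrpl58, Mrps10, Mrps18a, Mrps25 and Mrps35). Without KO-labelled library 2, 13 remained, these 7 and Mrpl2, Mrpl15, Mrpl16, Mrpl34, Mrpl43 and Mrps28 (3.40% of tested genes). Without KO-labelled library 3, 13 remained too, with Mrpl27 in place of Mrpl43 (4.60% of tested genes). The 7 members kept without Control library 2 were thus kept in these 3 fits. The shares in brackets are of all tested genes called higher in that fit. Without Control library 3, 24 calls remained (5.74%). Without Control library 1, 31 calls remained, and 35 of 77 members were called higher in all (10%). Without KO-labelled library 1 all 46 calls remained, and 66 of 77 members were called higher in all (20%). In each of these fits between 74 and 75 of the 77 members kept a positive fold change. Over all 77 members the median log2 fold change was 0.52 with all libraries and 0.49 without Control library 2.

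**Figure D3:**
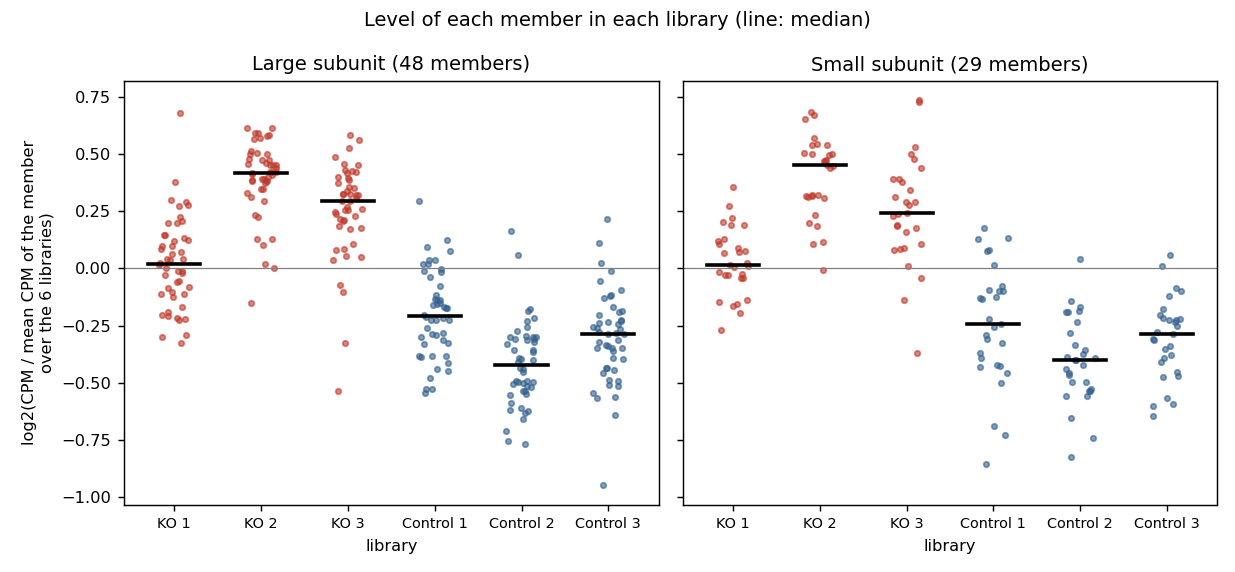
Level of every tested member in each library, as log2 of CPM over the member's mean CPM of the 6 libraries (y axis), with a line at the median, large and small subunit side by side. The median is highest in KO-labelled library 2 and lowest in Control library 2 in both subunits.

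The 77 members lie on 17 chromosomes, and their calls differed between them. Chromosome 17 holds 8 members (Mrpl2, Mrpl14, Mrpl18, Mrpl28, Mrps10, Mrps18a, Mrps18b and Mrps34), and 8 of 8 were called higher, at a median log2 fold change of 0.81. Of all 597 tested genes on chromosome 17, 37% were called higher, and their median was 0.38. Members on other chromosomes were called higher in 38 of 69 (55.1%, median 0.51), against 10.4% of tested genes there. Without Control library 2, 4 of 8 members on chromosome 17 (median 0.75) and 3 of 69 elsewhere (median 0.47) were called higher. Of all tested genes, on any chromosome, 1.43% were in that fit, and the share on chromosome 17 alone is not given. With each library's chromosome medians removed, 4 of 8 members on chromosome 17 and 40 of 69 elsewhere were called higher (10.7% of all tested genes). Chromosome 17 and chromosomes 2 and 7 were singled out after their values were seen. Chromosomes 2 and 7 were taken because no member there was called higher in the main edgeR fit. The 0 of 10 members called higher on them in that fit (median 0.35) thus follows from the choice. DESeq2 and limma-voom also called 0 of these 10 higher. Of 1777 tested genes there, 2.59% were called higher in the main edgeR fit (median -0.18). An unadjusted p under 0.05 was found in 5 of the 10 members and in 689 of the 1777 genes. Without KO-labelled library 1, 5 of these 10 were called higher (20% of all tested genes), and with chromosome medians removed, 6 (10.7%). With length and GC offsets 1 was called higher and 1 lower, and without Control library 1, 1 was called higher. The shares of 10.7% and 20% likewise cover all chromosomes. They do not show how the members stood beside other genes of their own chromosome in those fits. The cause of the chromosome medians was not tested.

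**Figure D4:**
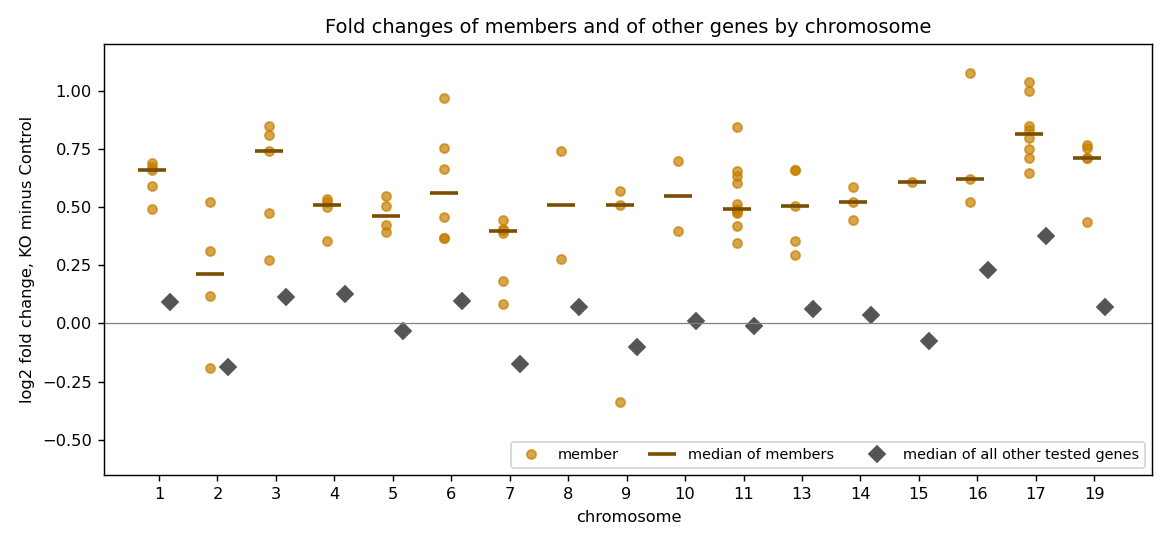
Log2 fold change (KO minus Control, y axis) of each member by chromosome (x axis), with a line at the members' median and a diamond at the median of all other tested genes of that chromosome. The members' median lies above the diamond on all 17 chromosomes, and both are highest on chromosome 17.

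Over these 17 chromosomes the 2 medians had a Pearson correlation of 0.776, given as a description, since the same 6 libraries lie behind every point. The members also have short transcripts, with a median exon length of 2533 bases against 4377 for all tested genes, while median GC content was 49.7% for both. Over all genes with a length (n = 11395) the log2 fold change correlated with log2 length at -0.28, and over the members (n = 77) at -0.18. Genes share the libraries, so these too are descriptions. With offsets for length and GC content, 16 large and 9 small subunit genes were called higher and 1 of each lower, with medians of 0.31 and 0.37, and 72 of 77 members kept a positive fold change (9.74% of all tested genes called higher). With chromosome medians removed as well, 6 large and 8 small subunit genes were called higher (6.55% of all tested genes). The part of length and chromosome in the remaining difference was not tested.

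**Figure D5:**
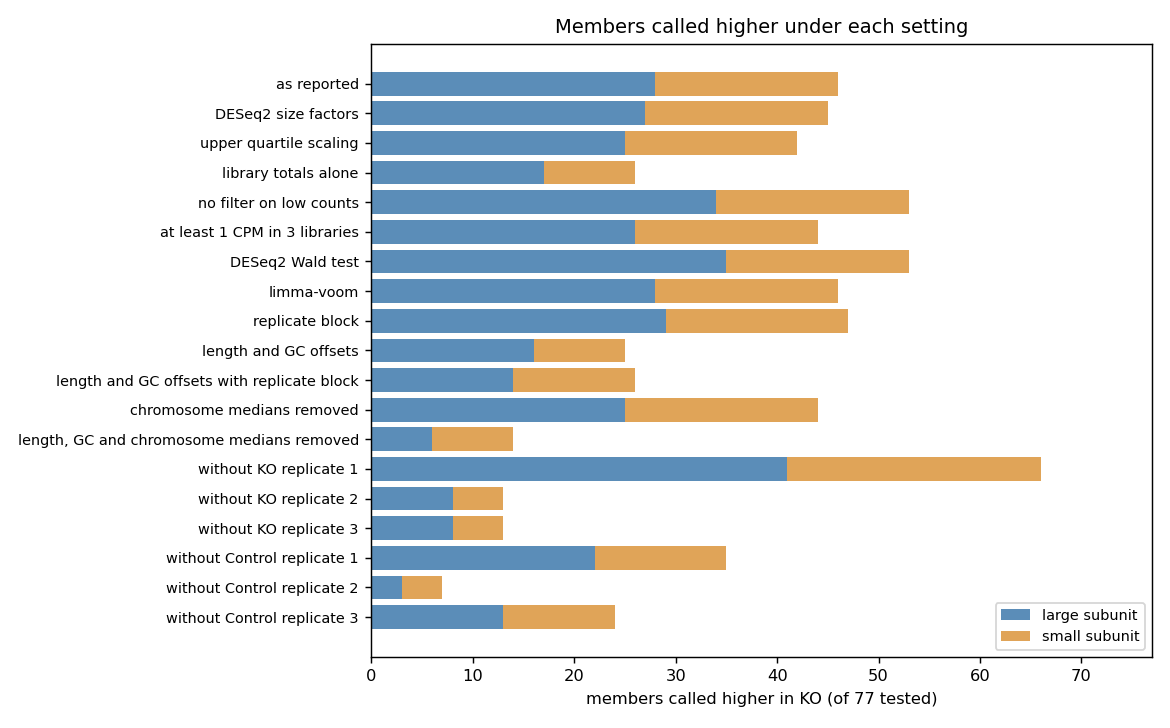
Number of large and small subunit members called higher in KO-labelled libraries (x axis, stacked) under each way of processing, including each library left out. The bar is shortest without Control library 2, at 7 members, and longest without KO-labelled library 1.

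The other proteins of the mitochondrial ribosome, whose symbols the rule does not match, were called higher in 3 of 5, where 11.8% of all tested genes were. Dap3, a GTP-binding protein of the small subunit, had 279 ± 45.3 CPM in KO-labelled and 172 ± 6.04 in Control libraries (SD, n = 3, log2 fold change 0.70, adjusted p = 0.0108). Aurkaip1 (0.67, adjusted p = 0.0151) and Chchd1 (0.66, adjusted p = 0.0184), also of the small subunit, were higher. Gadd45gip1, of the large subunit, stood at 0.32 (adjusted p = 0.304), and Ptcd3, a small subunit protein that binds RNA, at 0.02 (adjusted p = 0.903).

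Factors that build the mitochondrial ribosome and modify its RNA were called higher in 6 of 31 and lower in 1, at a median of 0.34. Rpusd3 (0.71), a pseudouridine synthase, and Fastkd2 (0.66) and Mterf4 (0.53), which take part in large subunit assembly, were higher. Gtpbp10, a GTPase that also serves large subunit assembly, went the other way, with 5.83 ± 0.968 CPM in KO-labelled and 18.4 ± 2.34 in Control libraries (log2 fold change -1.65, SE 0.19, adjusted p = 0.000868). Translation factors and activators were higher in 3 of 15 and lower in 1 (median 0.14). Mtres1 (0.70), which rescues stalled ribosomes, Lrpprc (0.49), which stabilizes mitochondrial messages, and the elongation factor Tsfm (0.61) were higher, and the ribosome recycling factor Gfm2 (-0.42) was lower. Of the enzymes that charge mitochondrial tRNAs, 2 of 21 were higher (median 0.19), the tyrosyl-tRNA synthetase Yars2 (0.94, adjusted p = 0.00606) and Gatb (0.48, adjusted p = 0.0237), a subunit of the enzyme that makes glutaminyl-tRNA. The shares of these 3 lists called higher lay between 9.52% and 20%, where 11.8% of all tested genes were. They moved with the setting. With length and GC offsets, 8 of 21 enzymes of tRNA charging were called higher (38.1%), against 32.5% of the members and 9.74% of all tested genes. Without KO-labelled library 1, 13 of 31 assembly factors and 6 of 15 translation factors were, where 20% of all tested genes were. The differences between the lists were not tested. Without Control library 2, the calls of Gtpbp10 and Yars2 remained among the genes named here, and those of Dap3, Aurkaip1, Chchd1, Fastkd2, Rpusd3, Mterf4, Mtres1, Lrpprc, Tsfm, Gfm2 and Gatb did not.

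Of the messages that the mitochondrial ribosome translates, 2 of 13 were higher (15.4%, median 0.39), where 11.8% of all tested genes were. These were the cytochrome oxidase subunit mt-Co2 (1.33) and the complex I subunit mt-Nd6 (0.71, adjusted p = 0.0348). The mitochondrial ribosomal RNAs were not analysed here. Genes for the mitochondrial transcription and DNA machinery had 0 calls of 12 in either direction in the main edgeR fit (median 0.31). DESeq2 called 2 higher and limma-voom 1. An unadjusted p under 0.05 was found in 6 of the 12, and in 4680 of all 11453 tested genes. Without KO-labelled library 1, edgeR called 5 of these 12 and 6 of the 13 mitochondrial messages higher, where 20% of all tested genes were. With length and GC offsets it called 3 and 1 higher, where 9.74% of all tested genes were. With library totals alone, 1 of the 12 was called lower. Of 8 nuclear regulators of mitochondrial genes, Sp1 (-0.84, adjusted p = 0.00783) and the coactivator Ppargc1b (-0.94, adjusted p = 0.0167) were called lower. Of all tested genes, 13.5% were called lower. The factors whose motifs were searched had no call: Nrf1 stood at 0.12 (adjusted p = 0.589), Gabpa at 0.10 (adjusted p = 0.631) and Yy1 at 0.00 (adjusted p = 0.983). The proteins of the cytosolic ribosome were called higher in 57 of 76 (75.0%), at a median of 0.68, where 11.8% of all tested genes were. With length and GC offsets the count was 22 of 76 (9.74% of all tested genes), and with chromosome medians removed as well 18 (6.55%). It was 6 of 76 without Control library 2 (1.43% of all tested genes), where the calls of mt-Co2, mt-Nd6, Sp1 and Ppargc1b were also lost.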

How the data were processed

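The deposited values are whole-number read counts per gene, which the authors made from RNA-seq of total RNA (TRIzol, KAPA Hyper Prep, per the labels' protocols). The submitters' processing notes name Trimmomatic 0.39, STAR 2.7.5c, StringTie 2.1.7 and build mm10. How reads were counted, with which annotation release and which strand setting, is not given in the sources used here.

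After edgeR's filterByExpr, 11453 of 31205 genes were tested, with TMM scaling. KO was compared with Control by the two-sided quasi-likelihood test of edgeR 4.0.16 (R 4.3.3, with limma 3.58.1), and p-values were adjusted by Benjamini-Hochberg over all tested genes (threshold 0.05). Replicates varied by 17.5% (common biological coefficient of variation). CPM are TMM-normalized, and CPM per kb divide by exon length. Exon length counts every base in any annotated exon of the gene, so it can exceed the length of the transcript that is made. Positions, lengths and GC content came from GENCODE M21 (mm10), where 30147 symbols matched directly, 338 by an alternative symbol, 58 ambiguously and 662 not at all. Counts within a group differed beyond sampling noise in each pair of libraries.

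The members and gene lists were chosen with earlier results of these data known. Genes named are members called lower, the 10 called higher per subunit with groups apart and the lowest adjusted p, the 3 highest and 3 lowest per subunit by level per length, Mrps18a, Mrps18b, Mrps18c, Mrpl12, Mrps12, Mrpl44, Mrps22, members that miss the filter, up to 4 called genes per list and 5 subunits outside the symbol rule. Mrpl4, Mrps2, Mrps36, Mrpl46, Mrps11, members whose fold change turned and called myeloid markers were added after their values were seen. Chromosomes 2, 7 and 17 were also singled out after their values were seen. The fit was tested on simulated counts. Alternatives were limma-voom, the Wald test of DESeq2 1.42.0, other scalings and filters, a replicate block, loess offsets for length and GC content (span 0.3), and leaving out each library. Removal of chromosome medians was added after the data were seen.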

Additional observations from a re-analysis of the deposited data

How the results depend on the processing

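The member calls depended on the libraries and on scaling more than their direction did. Leaving out 1 library at a time gave between 3 and 41 large subunit genes called higher and between 4 and 25 small subunit genes, against 28 and 18 with all libraries. Over all tested genes it gave between 166 and 2346 higher and between 472 and 2616 lower, against 1353 and 1543. Where 1 library of a group was left out, the 2 others set that group's spread.

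With library totals alone, 17 large and 9 small subunit genes were called higher and 1 large subunit gene lower. Over all genes that setting called 667 higher and 2212 lower and moved the median log2 fold change to -0.14. With length and GC offsets, 16 large and 9 small subunit genes were higher and 1 of each lower, with a large subunit median of 0.31. With these offsets and the replicate block, 14 large and 12 small subunit genes were higher and 1 of each subunit lower, with medians of 0.31 and 0.37. The share of all tested genes called higher is not given for that fit. With length, GC and chromosome medians removed, 6 large and 8 small subunit genes were higher and 1 large subunit gene lower, the medians were 0.29 and 0.29, and over all genes 750 were higher and 996 lower.

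In 10 of the 77 members, 1 of them called higher, the fold change turned in at least 1 alternative. Mrpl23 (0.08 as reported) stood at -0.067 with totals alone and between -0.055 and 0.24 with 1 library left out, below 0 without KO replicate 1 or Control replicate 3. Mrps5 (0.12) stood at -0.035 with totals alone. With length and GC offsets, Mrps12 (0.39) stood at -0.029, Mrpl41 (0.31) at -0.12 and Mrps36 (0.30) at -0.075, and with the replicate block as well at -0.030, -0.12 and -0.094. After removal of length, GC and chromosome trends, Mrpl40, which was called higher at 0.52, stood at -0.035, Mrps33 (0.46) at -0.029, Mrps15 (0.36) at -0.040, Mrps36 at -0.097 and Mrpl24 (0.27) at -0.085. Mrps2 (-0.19) stood at 0.019 with chromosome medians removed. The cause was not tested.

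DESeq2's Wald test called 35 large and 18 small subunit genes higher, limma-voom 28 and 18, DESeq2 size factors 27 and 18, upper quartile scaling 25 and 17, no filter 34 and 19, a filter of 1 CPM in 3 libraries 26 and 18, and chromosome medians removed 25 and 19. Of the 46 calls, 5 (Mrpl58, Mrps10, Mrps18a, Mrps25 and Mrps35) held in all 18 alternatives. With the replicate block, 29 large and 18 small subunit genes were called higher. Of all tested genes, 10.7% were called higher with chromosome medians removed. For the other alternatives in this paragraph that share is not given, so their counts do not show whether members moved more than other genes. DESeq2's Wald test also called more cytosolic ribosomal proteins higher, 68 of 76 against 57 in the main edgeR fit. The labels do not say that equal numbers pair libraries, and deviations of same-numbered libraries correlated at 0.154, -0.064 and 0.358, so the numbers were not taken as pairs. With 3 libraries a group, a member with no call is not shown to be unchanged.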
